A study of Mus musculus with 5 samples.

Results

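The genes described here are the contractile genes of arterial smooth muscle: *Acta2*, *Tagln*, *Cnn1*, *Myh11*, *Mylk*, *Myl9*, *Tpm1*, *Tpm2*, *Lmod1* and *Smtn*. They were chosen by name, as the rows of the expression tables whose Ensembl identifier carries one of these symbols in the annotation of mouse genome build NCBIM37. All 10 were found among 34615 gene symbols, and all 10 passed the filter on low values that left 16286 symbols for testing. RNA was sequenced from microvascular fragments, short pieces of small vessels pulled out of brain homogenate with magnetic beads that carry an antibody against the endothelial surface protein PECAM1. There were 3 wild-type (WT) mice and 2 Ins2-AKITA mice, with 1 library per mouse. The Ins2-AKITA mice carried 1 mutated copy of the insulin gene *Ins2* and the WT mice were littermates without it. All 5 mice were males on a C57BL6 background (the J substrain by the study's methods), between 26 and 38 weeks old. The point mutation acts in the insulin-producing beta cells of the pancreas, where the altered insulin accumulates, and the heterozygous males become hyperglycemic. The comparison asks how the vessel transcriptome of the brain differs after prolonged high blood glucose.

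Smooth muscle cells wrap arteries and arterioles and set their diameter. When calcium rises in the cell, myosin light chain kinase is switched on. The kinase phosphorylates the regulatory light chain of smooth muscle myosin, and the myosin then pulls on actin filaments that are anchored in dense bodies. Many of the genes for this machinery are switched on by serum response factor (SRF) and its partner myocardin through a DNA element called the CArG box, and they are widely used to tell contractile smooth muscle cells from pericytes and from smooth muscle cells that have lost their contractile state.

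Expression was measured as FPKM, fragments per kilobase of gene length, scaled to the number of mapped fragments, so that levels can be compared between genes. Comparison between mice also depends on the make-up of each library and on how it is scaled. The number of fragments behind each library, estimated from the smallest steps between FPKM values, was between 1128413 and 2848191. WT replicate 3 was the deepest library. Small and ribosomal RNA genes made up between 40.7% and 96.7% of the summed FPKM of a library, which makes any unit that is rescaled to that sum follow those RNAs. *Ins2* was listed at 0 in 4 libraries and at an FPKM of 1.51 in WT replicate 3. The Ins2-AKITA allele differs by a point mutation in a gene of beta cells, so this level says nothing about the genotype labels.

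The smooth muscle label was compared with 16 further smooth muscle markers that share no gene with the contractile set. All 16 passed the filter. Their summed FPKM was 144.9, 179.4 and 158.6 across WT replicates 1 to 3, against 147.3 and 127.8 across Ins2-AKITA replicates 1 and 2. Among them, desmin (*Des*), the intermediate filament protein of muscle that pericytes also express, had an FPKM of 7.33, 20.0 and 13.5 across WT mice against 9.49 and 8.60 across Ins2-AKITA mice. Phospholamban (*Pln*), the inhibitor of the calcium pump of the sarcoplasmic reticulum, lay between 4.43 and 9.57 in the 5 mice. The fragments also held endothelial cells, pericytes, glia and neurons, whose marker sums are given beside the results. *Tpm1*, *Mylk* and *Myl9* are also used by cells outside smooth muscle.

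The promoters show which members carry CArG-like sites close to their start. RefSeq start sites on build GRCm38.p6 were listed for 8 of the 10 genes. *Tagln* and *Myh11* had no entry. The 250 bases before the start are printed 5′ to 3′ on the strand of the gene, and capitals mark a CArG box with up to 1 mismatch. This box is 10 bases long, a pair of C, then A or T throughout, then a pair of G, and was searched on both strands; no other motif was searched. *Acta2* (chr19:34255374-34255623, minus strand) and *Lmod1* (chr1:135324563-135324812, plus strand) are shown because their RNA differed most among the genes with sites. *Myl9* (chr2:156775214-156775463, plus strand) and *Tpm1* (chr9:67049214-67049463, minus strand) are shown because their RNA differed least among the genes with sites. *Smtn* (chr11:3539293-3539542, minus strand) is shown because it had no site and was among the genes with the largest difference.
Acta2: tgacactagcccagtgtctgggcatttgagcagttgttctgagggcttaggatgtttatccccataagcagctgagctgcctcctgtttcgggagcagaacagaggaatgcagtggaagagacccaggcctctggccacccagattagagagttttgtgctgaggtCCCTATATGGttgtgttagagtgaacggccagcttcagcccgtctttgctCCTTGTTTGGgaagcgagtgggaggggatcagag
Lmod1: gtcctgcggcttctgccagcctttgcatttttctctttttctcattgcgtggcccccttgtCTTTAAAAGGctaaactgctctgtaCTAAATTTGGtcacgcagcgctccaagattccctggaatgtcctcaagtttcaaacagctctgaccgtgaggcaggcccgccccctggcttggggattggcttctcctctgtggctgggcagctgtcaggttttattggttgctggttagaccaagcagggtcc
Myl9: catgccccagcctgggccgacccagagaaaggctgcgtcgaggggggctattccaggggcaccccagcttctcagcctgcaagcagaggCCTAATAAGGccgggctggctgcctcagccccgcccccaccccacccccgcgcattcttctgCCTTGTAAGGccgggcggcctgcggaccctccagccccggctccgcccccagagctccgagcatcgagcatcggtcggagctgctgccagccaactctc
Tpm1: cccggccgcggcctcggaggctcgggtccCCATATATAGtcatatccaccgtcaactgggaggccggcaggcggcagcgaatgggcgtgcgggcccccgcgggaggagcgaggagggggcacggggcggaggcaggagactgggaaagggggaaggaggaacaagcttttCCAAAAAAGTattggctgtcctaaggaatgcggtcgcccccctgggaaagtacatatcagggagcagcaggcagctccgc
Smtn: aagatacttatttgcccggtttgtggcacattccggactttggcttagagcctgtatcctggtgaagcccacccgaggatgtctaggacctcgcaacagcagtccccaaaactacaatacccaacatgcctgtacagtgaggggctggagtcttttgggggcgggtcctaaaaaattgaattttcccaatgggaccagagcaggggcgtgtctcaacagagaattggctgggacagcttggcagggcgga
The sites began 84 and 34 bases before the start of *Acta2*, 189 and 164 before *Lmod1*, 161 and 99 before *Myl9*, and 221 and 80 before *Tpm1*. The first site of *Myl9* was the only one without a mismatch. Of the 8 promoters, 4 held a site with up to 1 mismatch and 1 an exact site, while *Cnn1*, *Mylk*, *Tpm2* and *Smtn* held neither in this window. Among 32851 RefSeq promoters of the same length, 18.6% held a site with up to 1 mismatch and 1.47% an exact one. These matches describe letters only, before 1 listed start per gene. *Mylk*, *Tpm2*, *Smtn* and *Tpm1* have 4, 7, 12 and 21 annotated transcripts, and any other starts were not searched. The log2 fold changes of the 4 genes with sites were -0.60 for *Acta2*, -0.69 for *Lmod1*, -0.30 for *Myl9* and -0.11 for *Tpm1*. Whether the sites bear on these differences was not tested.

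In FPKM as deposited, though not in TPM, the contractile RNA was lower in the Ins2-AKITA mice for most of the set. In 8 of the 10 genes both Ins2-AKITA mice lay below all 3 WT mice, where 10.3% of all tested genes did so, and in none did both lie above them, against 9.24%. The exceptions were *Mylk* and *Myl9*. The fitted difference was below 0 in 10 of 10 genes, against 53.5% of all tested genes, and at or below -0.5 on the log2 scale in 7, against 16.3%. The median log2 fold change of the 10 genes was -0.60, while that of all tested genes was -0.03. None of the 10 passed an adjusted p of 0.05 in limma, where adjusted p lay between 0.90 and 0.98, and 0.0246% of all tested genes passed. At an unadjusted limma p under 0.05, *Acta2*, *Tagln*, *Myh11* and *Smtn* were lower and none was higher, while 2.93% of all tested genes were lower, 1.53% higher and 4.46% either. That count of 4 became 2 without WT replicate 2, where 516 of 16158 tested genes met the threshold. Without Ins2-AKITA replicate 2 the median log2 fold change of the members was -0.42. With 3 against 2 mice an exact permutation test cannot give a p under 0.1. In bulk RNA, fewer smooth muscle cells per fragment and less contractile RNA per cell cannot be told apart. Neither can be told apart from a smaller share of vessel RNA in the library. The contractile sum stood at 81.9% and 67.7% of its WT mean in Ins2-AKITA replicates 1 and 2. The endothelial marker sum stood at 78.2% and 63.1%, and the pericyte marker sum at 96.9% and 75.4%. The count of 8 depends on the scaling of the libraries. It was 8 after median-ratio scaling, where 1634 of the 16286 tested genes did so, and 7 after quantile normalization, against 8.82% of all tested genes. It was 0 after conversion to TPM, against 0.632% of all tested genes, and 0 with libraries scaled to the endothelial markers, against 2.51%. TPM put the median over all genes at 1.25 on the log2 scale and that of the 9 members tested at 0.99, so that the members lay 0.26 below it.

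**Figure D1:**
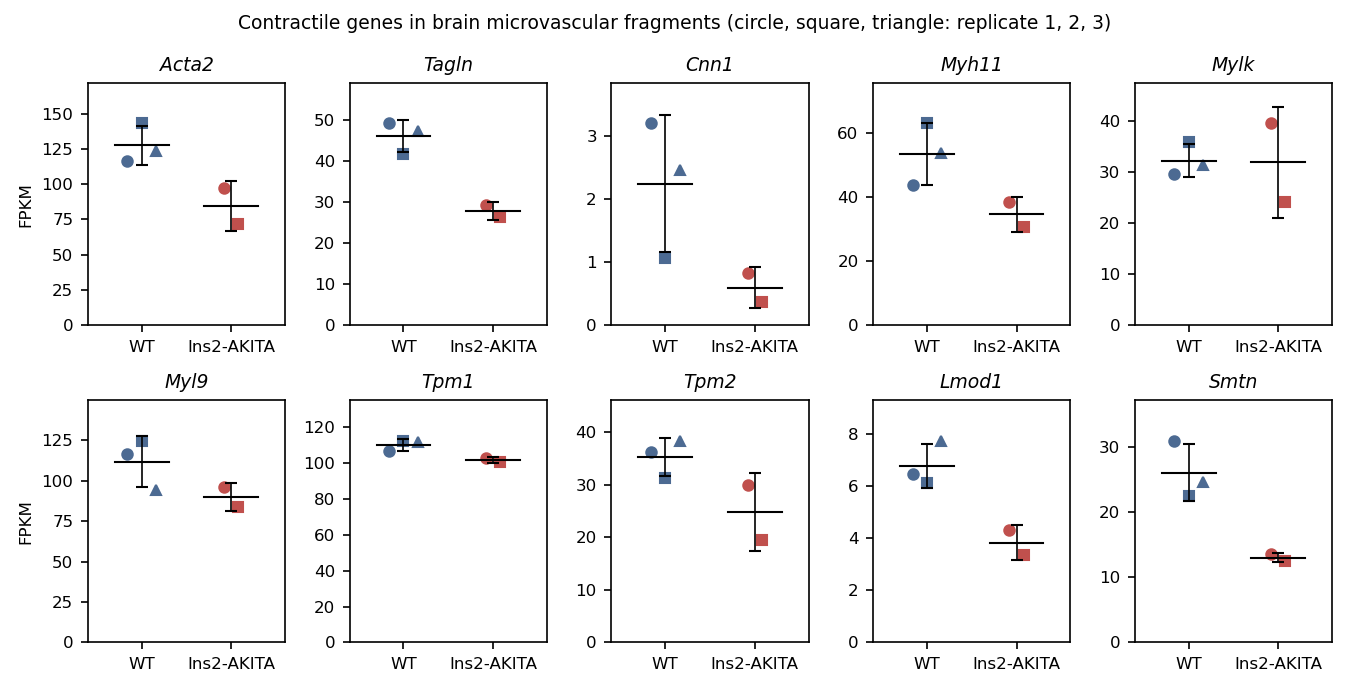
FPKM of the 10 contractile genes in each mouse, with WT in blue and Ins2-AKITA in red; each point is 1 mouse, horizontal lines are group means and bars are 1 SD (n = 3 and 2), and each panel has its own scale from 0. The red points lie below all blue points in each panel except those of *Mylk* and *Myl9*.

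In the WT mice the set spanned a wide range of levels. *Acta2*, *Myl9* and *Tpm1* were the most abundant, with mean FPKM of 128 ± 13.9, 112 ± 15.9 and 110 ± 3.29 (SD, n = 3), and each overlapped its neighbour. *Myh11* at 53.5 ± 9.63 and *Tagln* at 46.0 ± 3.84 followed and also overlapped. *Tpm2* at 35.3 ± 3.63, *Mylk* at 32.3 ± 3.21 and *Smtn* at 26.1 ± 4.41 formed the next group, in which each gene overlapped its neighbour. *Lmod1* at 6.76 ± 0.85 and *Cnn1* at 2.24 ± 1.09 lay apart from the rest and from each other. By the mean of the Ins2-AKITA mice *Tpm1* stood highest, followed by *Myl9* and then *Acta2*, but the values of *Myl9* and *Acta2* overlapped.

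Among the thin filament genes, the actin itself was lower. *Acta2* (ENSMUSG00000035783, chr19:34315580-34329826, minus strand, on NCBIM37 as for all gene positions that follow) encodes smooth muscle alpha-actin, the actin isoform of contractile smooth muscle. Its FPKM was 116, 143 and 123 across WT replicates 1 to 3, against 96.9 and 72.1 across Ins2-AKITA replicates 1 and 2. The groups did not overlap, and the Ins2-AKITA mean was 66.2% of the WT mean. In limma its log2 fold change was -0.60 ± 0.21 (SE; 95% interval -1.11 to -0.09, unadjusted p = 0.028, adjusted p = 0.90), and the exact permutation p was 0.1. Without Ins2-AKITA replicate 2 it was -0.39. The lowest WT value rested on about 211 fragments and the highest Ins2-AKITA value on about 170. Their 95% Poisson intervals, 101 to 133 and 82.9 to 113, overlapped, and such intervals cover counting error only.

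The tropomyosins, which lie along the actin filament and govern the access of myosin, had unlike fold changes, although the *Tpm2* to *Tpm1* ratio overlapped between the groups. *Tpm1* (ENSMUSG00000032366, chr9:66870397-66897213, minus strand), whose 21 annotated transcripts serve many cell types, was almost level. Its FPKM was 106, 113 and 112 across WT mice against 103 and 101 across Ins2-AKITA mice. The groups did not overlap, yet the Ins2-AKITA mean was 92.5% of the WT mean and the log2 fold change was -0.11 ± 0.16 (SE; limma adjusted p = 0.93). *Tpm2* (ENSMUSG00000028464, chr4:43527583-43536637, minus strand), the beta-tropomyosin, had an FPKM of 36.2, 31.3 and 38.3 across WT mice against 29.9 and 19.5 across Ins2-AKITA mice. Ins2-AKITA replicate 1 lay just under the lowest WT mouse and replicate 2 well under it. Its log2 fold change was -0.52 ± 0.24 (SE; limma adjusted p = 0.90), and it was -0.22 without Ins2-AKITA replicate 2 and -0.82 without replicate 1.

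*Lmod1* (ENSMUSG00000048096, chr1:137221384-137264642, plus strand) encodes leiomodin 1, which nucleates actin filaments in smooth muscle. Its FPKM was 6.45, 6.11 and 7.73 across WT mice against 4.29 and 3.35 across Ins2-AKITA mice. Both Ins2-AKITA values lay below the WT range, with a mean at 56.5% of the WT mean. For this gene limma gave a log2 fold change of -0.69 ± 0.29 (SE; 95% interval -1.39 to 0.01, limma adjusted p = 0.90).

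*Smtn* (ENSMUSG00000020439, chr11:3417526-3440615, minus strand) encodes smoothelin, an actin-binding protein of contractile smooth muscle. Its FPKM was 31.1, 22.6 and 24.7 across WT mice against 13.6 and 12.6 across Ins2-AKITA mice. The Ins2-AKITA mice differed little from each other and had a mean at 50.04% of the WT mean. The fitted log2 fold change was -0.94 ± 0.22 (SE; 95% interval -1.48 to -0.39), with an unadjusted limma p of 0.0052, the lowest of the 10 genes, an adjusted p of 0.90 and an exact permutation p of 0.1. The exons of *Smtn* share 714 bases with the antisense genes *Gm11946* and *Gm11947*. *Gm11946* had an FPKM between 1.04 and 3.63 in the 5 mice and *Gm11947* was listed at 0 in all 5. Whether strand was used in counting is not given in the sources used here.

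*Tagln* (ENSMUSG00000032085, chr9:45737711-45744141, minus strand) encodes transgelin or SM22-alpha, an actin-binding protein that marks early and mature smooth muscle. Its FPKM was 49.1, 41.7 and 47.2 across WT mice against 29.3 and 26.3 across Ins2-AKITA mice. The groups did not overlap, and the Ins2-AKITA mean was 60.5% of the WT mean. The nearest mice rested on about 75 and 45 fragments, and their 95% Poisson intervals, 32.8 to 52.3 and 21.4 to 39.3, overlapped. The log2 fold change was -0.70 ± 0.19 (SE; 95% interval -1.15 to -0.26), with an unadjusted limma p of 0.0081, an adjusted p of 0.90 and an exact permutation p of 0.1. *Tagln* shares 65 exon bases with *Pcsk7* on the opposite strand. *Pcsk7* had an FPKM of 9.87, 8.51 and 5.33 across WT mice against 5.49 and 6.04 across Ins2-AKITA mice, so its groups overlapped.

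*Cnn1* (ENSMUSG00000001349, chr9:21903725-21914074, plus strand) encodes calponin 1, which binds actin and inhibits the myosin ATPase. It was the least abundant member, with an FPKM of 3.20, 1.06 and 2.46 across WT mice against 0.83 and 0.36 across Ins2-AKITA mice. These values correspond to about 8, 3 and 15 fragments across WT mice against 2 and 1 across Ins2-AKITA mice. The nearest mice, WT replicate 2 and Ins2-AKITA replicate 1, rested on about 3 and 2 fragments. Their 95% Poisson intervals, 0.22 to 3.10 and 0.10 to 2.99, almost coincided, so the gap between the groups rests on very few fragments. For the farthest mice the interval reached from 1.38 to 6.30 for WT replicate 1 and from 0.0092 to 2.02 for Ins2-AKITA replicate 2. The log2 fold change of -0.98 ± 0.53 (SE; limma adjusted p = 0.90, exact permutation p = 0.2) was the largest of the set and the least precise, and at this depth it cannot be placed against those of the other genes. With 0.1 in place of 1 added before the logarithm it was -1.71, and the Ins2-AKITA mean was 26.6% of the WT mean.

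*Myh11* (ENSMUSG00000018830, chr16:14194620-14291501, minus strand) encodes the smooth muscle myosin heavy chain, the most specific marker of the lineage. Its FPKM was 43.7, 63.0 and 53.7 across WT mice against 38.4 and 30.7 across Ins2-AKITA mice. The groups did not overlap, although WT replicate 1 was only slightly above Ins2-AKITA replicate 1. The log2 fold change was -0.61 ± 0.23 (SE; unadjusted limma p = 0.036, adjusted p = 0.90), and the exact permutation p was 0.2.

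*Myl9* (ENSMUSG00000067818, chr2:156601156-156607394, plus strand) encodes the regulatory light chain that the kinase phosphorylates. Its FPKM was 117, 125 and 94.2 across WT mice against 96.3 and 83.8 across Ins2-AKITA mice, so that WT replicate 3 lay between the Ins2-AKITA mice. The log2 fold change was -0.30 ± 0.20 (SE; 95% interval -0.79 to 0.18, limma adjusted p = 0.90). *Mylk* (ENSMUSG00000022836, chr16:34745296-35002520, plus strand) encodes myosin light chain kinase. Its FPKM was 29.6, 35.8 and 31.4 across WT mice against 39.6 and 24.2 across Ins2-AKITA mice, which held the highest and the lowest value of all 5. The group means were close, at 32.3 ± 3.21 (SD, n = 3) and 31.9 ± 10.8 (SD, n = 2). The log2 fold change of -0.05 ± 0.26 (SE; 95% interval -0.67 to 0.57, limma adjusted p = 0.98) leaves room for a difference in either direction as large as that of *Acta2* in the negative one and almost as large in the positive one.

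**Figure D2:**
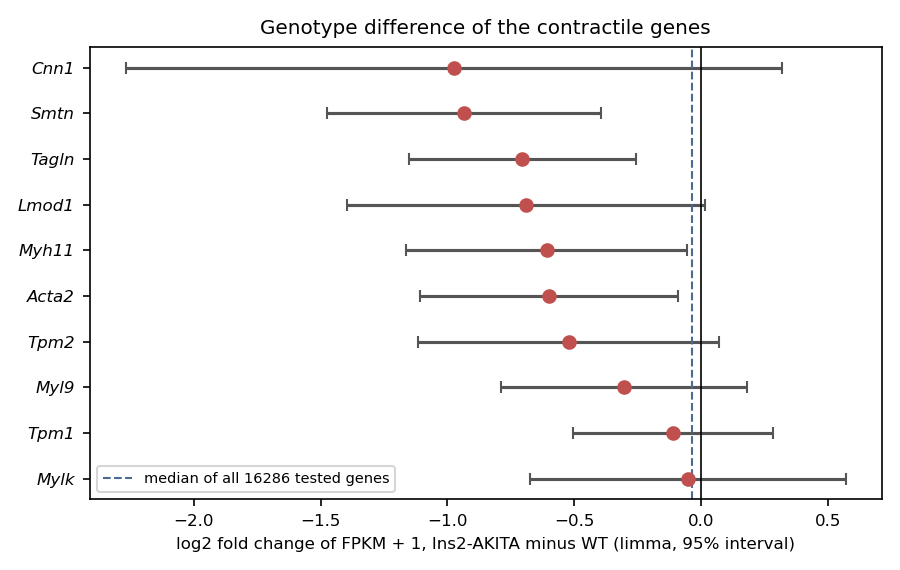
Log2 fold change of FPKM + 1 (Ins2-AKITA minus WT) with its 95% interval from limma for each contractile gene, from 3 WT and 2 Ins2-AKITA mice; the solid line is 0 and the dashed line the median of all 16286 tested genes, -0.03. All 10 points lie left of the dashed line, and the intervals of *Acta2*, *Tagln*, *Myh11* and *Smtn* end below 0.

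The Ins2-AKITA mice were not alike. Replicate 2 was lower than replicate 1 in 10 of 10 members, where 50.4% of all tested genes were. Replicate 1 lay below all WT mice in 8 genes, against 22.5% of all tested genes, and replicate 2 in 10, against 27.9%. The summed FPKM of the 10 genes was 538.8, 582.1 and 534.9 across WT mice against 452.3 and 373.7 across Ins2-AKITA mice. With Ins2-AKITA replicate 2 left out, the median log2 fold change of the set was -0.42 and *Mylk* stood at 0.29, and with replicate 1 left out the median was -0.79.

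Ratios between members within a library do not depend on how the library was scaled. *Acta2* served as denominator because its gene defines the contractile filament, and *Tpm1* because it varied least among the WT mice; both were chosen after their values were seen. The *Mylk* to *Acta2* ratio was 0.255, 0.250 and 0.254 across WT mice against 0.408 and 0.336 across Ins2-AKITA mice. The *Tpm1* to *Acta2* ratio was 0.916, 0.786 and 0.905 across WT mice against 1.06 and 1.40 across Ins2-AKITA mice. Both ratios were higher in both Ins2-AKITA mice than in any WT mouse, with log2 differences of 0.55 and 0.49 and an exact permutation p of 0.1 each, the smallest this design allows. Relative to *Acta2*, which was itself lower, 40.4% of all tested genes were higher in this way, so 2 of 9 members is no more than the background. *Myh11* had nearly the same ratio to *Acta2*, with 0.376, 0.440 and 0.435 across WT mice against 0.397 and 0.425 across Ins2-AKITA mice. The other 6 ratios to *Acta2* overlapped between the groups.

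Relative to *Tpm1*, 6 of 9 members were lower in both Ins2-AKITA mice than in every WT mouse: *Acta2*, *Tagln*, *Cnn1*, *Myh11*, *Lmod1* and *Smtn*. Of all tested genes, 6.85% were so relative to *Tpm1*, which was itself among the members that differed least. The *Smtn* to *Tpm1* ratio was 0.292, 0.201 and 0.221 across WT mice against 0.132 and 0.125 across Ins2-AKITA mice (log2 difference -0.87, exact permutation p = 0.1). The *Tagln* to *Tpm1* ratio was 0.461, 0.371 and 0.423 across WT mice against 0.285 and 0.261 across Ins2-AKITA mice (log2 difference -0.61, exact permutation p = 0.1). *Mylk*, *Myl9* and *Tpm2* overlapped on this scale. As a share of the summed FPKM of the 10 genes, *Tpm1* made up 19.8%, 19.3% and 20.9% across WT mice against 22.8% and 27.0% across Ins2-AKITA mice. *Mylk* made up 5.49%, 6.16% and 5.86% across WT mice against 8.75% and 6.49% across Ins2-AKITA mice. Both shares were higher in both Ins2-AKITA mice. This restates the small fold changes of these genes, because the shares of a sum cannot all be lower.

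The marker sums of vessel and brain cells also differed between mice. The summed FPKM of 12 pericyte markers was 280.5, 290.6 and 234.7 across WT mice against 260.2 and 202.5 across Ins2-AKITA mice. The sum of 12 endothelial markers was 653.5, 873.8 and 535.2 across WT mice against 537.5 and 434.1 across Ins2-AKITA mice. Of the endothelial markers, 5 of 12 lay below all WT mice in both Ins2-AKITA mice, against 10.3% of all tested genes. *Cdh5*, *Eng* and *Ly6c1* were lower at an unadjusted limma p under 0.05, against 2.93% of all tested genes. The sum of 9 astrocyte markers was higher in both Ins2-AKITA mice, with 2284, 2684 and 3192 across WT mice against 3557 and 4192 across Ins2-AKITA mice. The separation of these sums rested on *Slc1a2*, the largest term, at 1013, 1449 and 1507 across WT mice against 1897 and 2110 across Ins2-AKITA mice. All 9 had a positive log2 fold change, with a median of 0.47, while 53.5% of all tested genes had a negative one. In 4 of the 9 both Ins2-AKITA mice lay above all WT mice, against 9.24% of all tested genes. None of the 9 was at 0 in any library. How far the share of vessel RNA in the libraries bears on the contractile levels was not tested.

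In the marker lists none of the genes passed the adjusted limma threshold. Pericyte markers ran from -1.16 for *Ndufa4l2* to 0.18 for *Anpep* on the log2 scale, with 2 of 12 below all WT mice, against 10.3% of all tested genes. *Ndufa4l2* was the only one at an unadjusted limma p under 0.05, a threshold that 4.46% of all tested genes met. *Ifitm1* was listed at 0 in Ins2-AKITA replicate 2. Endothelial markers ran from -1.08 for *Ly6c1* to 0.05 for *Slco1c1*. The sum of 10 arterial endothelial markers was below the WT range in both Ins2-AKITA mice, at 158.8 and 126.6 against a lowest WT value of 172.5, and its genes ran from -1.22 for *Vegfc* to 0.16 for *Hey1*, with *Sema3g* at -0.94 the only one at an unadjusted limma p under 0.05. Of the 10 arterial endothelial markers, 4 lay below all WT mice in both Ins2-AKITA mice, against 10.3% of all tested genes, and none lay above them. Blood cell markers ran from -1.16 for *Hba-a2*, the only one at an unadjusted limma p under 0.05, to -0.34 for *Ptprc*. Astrocyte markers ran from 0.31 for *Gjb6* to 1.03 for *Aldh1l1*, the only one at that threshold. The remaining lists had no gene at that threshold and ran from *Slc6a13* at -0.80 to *Dcn* at 0.35 in fibroblasts, from *C1qb* at -0.38 to *Tmem119* at 0.32 in microglia, from *Rbfox3* at -0.25 to *Camk2a* at 0.30 in neurons and from *Mog* at -0.42 to *Cnp* at 0.41 in oligodendrocytes.

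**Figure D3:**
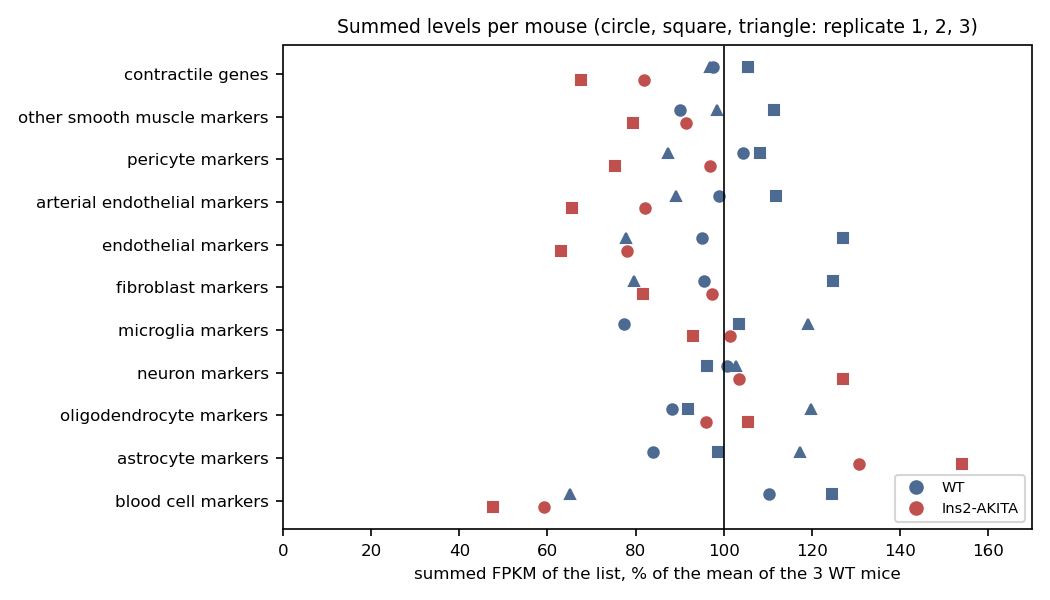
Summed FPKM of the contractile genes and of 10 marker lists in each mouse, as a percentage of the mean of the 3 WT mice for that list (WT blue, Ins2-AKITA red; circle, square and triangle are replicates 1, 2 and 3). The contractile sum stands at 81.9% and 67.7% in the Ins2-AKITA mice, the endothelial sum at 78.2% and 63.1% and the astrocyte sum at 131% and 154%.

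Relative to the endothelial markers, the groups overlapped. The contractile to endothelial ratio of summed FPKM was 0.824, 0.666 and 0.999 across WT mice against 0.842 and 0.861 across Ins2-AKITA mice, both within the WT range. *Acta2* amounted to 17.8%, 16.4% and 23.1% of the endothelial sum across WT mice against 18.0% and 16.6% across Ins2-AKITA mice. No member lay below all WT mice on this scale, and *Myl9*, at 17.9%, 14.3% and 17.6% across WT mice against 17.9% and 19.3% across Ins2-AKITA mice, lay marginally above them. *Smtn* had the lowest log2 difference apart from *Cnn1*, at -0.51 with an exact permutation p of 0.3. Scaling to the endothelial markers also raised the median of all tested genes to 0.39, so that the median of the members, -0.13, lay 0.52 below it.

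Relative to the summed pericyte markers the ratio was lower, but this rested on *Rgs5*. The contractile to pericyte ratio was 1.921, 2.003 and 2.279 across WT mice against 1.74 and 1.85 across Ins2-AKITA mice, with means of 2.07 ± 0.19 (SD, n = 3) and 1.79 ± 0.08 (SD, n = 2). The groups did not overlap, but the distance between the nearest mice was small beside the spread among the WT mice. *Rgs5* was the largest term of the pericyte sum, at 97.6, 124.7 and 100.3 across WT mice against 120.4 and 96.2 across Ins2-AKITA mice. The separation does not hold when this gene is left out of the sum. With libraries scaled to equal pericyte sums, 6 of the 10 contractile genes lay below all WT mice in both Ins2-AKITA mice, against 5.81% of all tested genes.

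**Figure D4:**
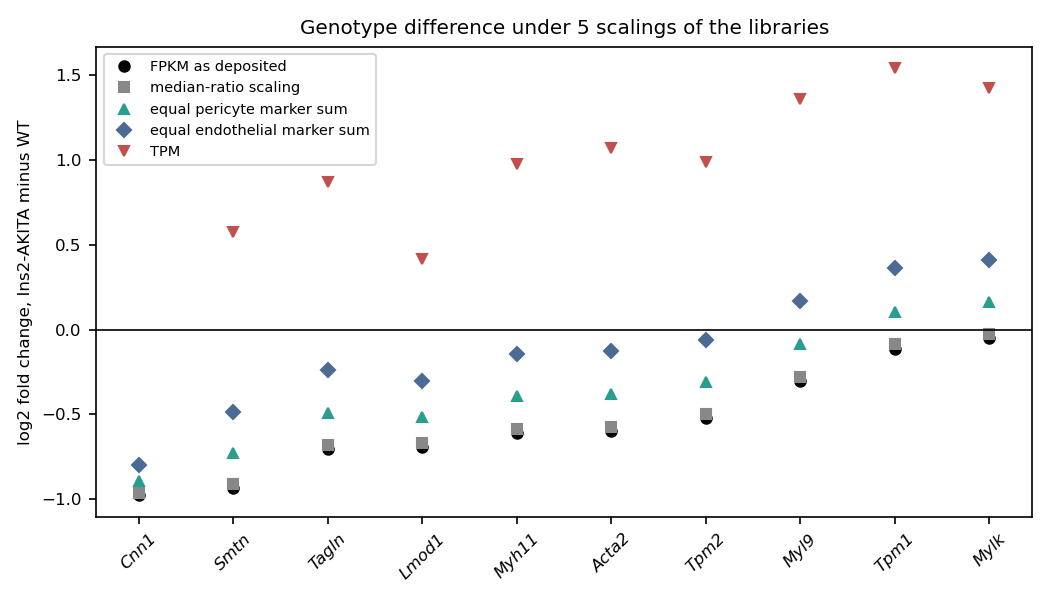
Log2 fold change (Ins2-AKITA minus WT) of each contractile gene from FPKM as deposited and after 4 rescalings of the libraries; *Cnn1* has no TPM point because it did not pass the filter there. The order of the genes changes little between FPKM, median-ratio and marker scalings, while TPM lifts all values above 0.

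The other genes of contraction were read from lists chosen by function. Of 14 tested genes of the thin and thick filaments outside the set, 1 had an unadjusted limma p under 0.05, against 4.46% of all tested genes. None passed the adjusted threshold, and the median log2 fold change was -0.14. The fold change was negative in 11, against 53.5% of all tested genes. In 5 of the 14 both Ins2-AKITA mice lay below all WT mice, against 10.3% of all tested genes, and in none did both lie above them. The gene at an unadjusted p under 0.05 was *Cald1*, caldesmon, which binds actin and restrains the myosin ATPase. Its FPKM was 165, 178 and 144 across WT mice against 113 and 98.2 across Ins2-AKITA mice, with a log2 fold change of -0.62 ± 0.19 (SE; limma adjusted p = 0.90). Both Ins2-AKITA mice lay below the WT range, as for *Acta2* and *Tagln*. The list ran from *Tagln2*, the broadly expressed relative of *Tagln*, at -0.72 to *Myh10*, a non-muscle myosin heavy chain, at 0.23. The cardiac actin *Actc1* was listed at 0 in all 5 libraries.

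The calcium and myosin phosphatase genes, which set the phosphorylation of the light chain, were spread around 0. Of 22 tested, none reached an unadjusted limma p under 0.05, against 4.46% of all tested genes. The log2 fold change was negative in 12, against 53.5% of all tested genes, and positive in 10, with a median of -0.04. Both Ins2-AKITA mice lay below all WT mice in 2, against 10.3% of all tested genes, and above them in 3, against 9.24%. *Prkg1*, the cGMP-dependent kinase that relaxes smooth muscle, was lowest at -0.58, with overlapping groups.

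The dense body and adhesion plaque genes, whose products anchor the actin filaments, had a median log2 fold change of -0.34 over 18 tested genes. Of these, 14 were negative, against 53.5% of all tested genes. Both Ins2-AKITA mice lay below all WT mice in 5 of the 18, against 10.3% of all tested genes, and above them in 1, against 9.24%. *Zyx*, zyxin, an adhesion plaque protein, was the lowest at -1.38 ± 0.25 (SE; limma adjusted p = 0.60, exact permutation p = 0.1). Its FPKM was 20.1, 17.1 and 14.3 across WT mice against 6.16 and 5.72 across Ins2-AKITA mice. The Ins2-AKITA values were close to each other and far below the lowest WT mouse, and *Zyx* is expressed in many cell types. *Ilk*, integrin-linked kinase, was the highest at 0.37.

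The regulators of the contractile program showed no common direction. Of 16 tested SRF and myocardin regulators, 9 had a negative and 7 a positive log2 fold change, with a median of -0.04. Among all tested genes, 53.5% had a negative one. Both Ins2-AKITA mice lay below all WT mice in 2 of the 16, against 10.3% of all tested genes, and above them in 1, against 9.24%. *Myocd*, myocardin itself, had an FPKM of 2.17, 2.82 and 7.06 across WT mice against 8.44 and 6.82 across Ins2-AKITA mice, or a log2 fold change of 0.90 ± 0.47 (SE; limma adjusted p = 0.90). WT replicate 3 lay between the Ins2-AKITA mice. *Klf4*, a repressor of contractile genes that endothelial cells also express, had an FPKM of 25.05, 19.7 and 31.7 across WT mice against 17.4 and 13.6 across Ins2-AKITA mice. Its groups did not overlap, and its log2 fold change was -0.67 ± 0.27 (SE; unadjusted limma p = 0.044, adjusted p = 0.90, exact permutation p = 0.2).

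Among the 16 other smooth muscle markers, 3 lay below all WT mice in both Ins2-AKITA mice, against 10.3% of all tested genes. In 1 both lay above, against 9.24%, and the median log2 fold change was -0.23. *Mustn1*, a small nuclear protein of muscle, had an FPKM of 9.91, 8.75 and 7.02 across WT mice against 4.66 and 2.46 across Ins2-AKITA mice, with a log2 fold change of -1.10 ± 0.34 (SE; unadjusted limma p = 0.016, adjusted p = 0.90, exact permutation p = 0.1). *Sncg*, gamma-synuclein, stood at -0.52 (unadjusted limma p = 0.047, adjusted p = 0.90, exact permutation p = 0.1). The summed FPKM of these 16 markers overlapped between the groups, unlike that of the contractile genes, but this overlap rested on *Itga8*. Its FPKM was 5.17, 5.92 and 4.81 across WT mice against 14.4 and 3.62 across Ins2-AKITA mice.

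Some genes outside the set had nearly the same profile over the 5 mice as the members. Likeness was measured as the root mean square distance between a gene's log2(FPKM + 1) values, centred on its own mean, and the median centred profile of the members, over 11263 genes with a mean FPKM of at least 5. The nearest were *Mcart1* at 0.0383, *Samm50* at 0.0523, *Mlx* at 0.0716, *Zfp385a* at 0.0806 and *Dll4*, a Notch ligand of arterial endothelium, at 0.0814. *Dll4* had an FPKM of 7.30, 8.24 and 8.17 across WT mice against 5.54 and 4.64 across Ins2-AKITA mice. The members ranked between 9 for *Lmod1* and 1905 for *Mylk*, although they had defined the profile themselves, and *Cnn1* was below the filter. *Lmod1*, *Tpm2*, *Tagln* and *Acta2* lay closest to the common profile and *Tpm1* and *Mylk* farthest from it. A distance over 5 mice is a description of these libraries.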

How the data were processed

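Microvascular fragments of the brain gave 1 RNA library per mouse, from 3 WT mice and 2 Ins2-AKITA mice. The authors depleted ribosomal RNA, made stranded total RNA libraries, mapped reads to NCBIM37 with TopHat2 2.0.4, removed duplicates with Picard 1.92 and tested with Cufflinks 2.2.1. The deposited values were FPKM per gene and mouse. The program behind the values of single mice and the use of strand in counting are not given in the sources used here. Duplicate removal can lower abundant genes.

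Of 37982 identifiers, 37197 matched the GENCODE vM1 annotation. Values were summed per symbol. Cufflinks needs reads, so the genotypes were compared by limma 3.58.1 under R 4.3.3 (lmFit, eBayes with a trend, two-sided, Benjamini-Hochberg over the 16286 symbols whose mean FPKM was 1 or more) on log2(FPKM + 1), which understates the change of low genes. Exact two-sided permutation tests used all 10 splits of the 5 mice. Other steps used Python 3.11.15. The fit was tested on simulated data. Fragment numbers were estimated from FPKM steps and an effective gene length; between 97.71% and 97.99% of the low values checked came out whole within 0.05. They are given only for genes with 1 annotated transcript. Intervals cover counting error only. The labels do not say which mice share a litter, so the tests treated the 5 mice as independent.

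Named were all 10 members, from each list the tested genes with the highest and lowest fold change and those with an unadjusted p under 0.05, and the 5 genes nearest in profile; genes of the marker check and overlapping genes were named in addition, and 1 gene that the rule names is not reported here. The members and lists were chosen with earlier results of these data known. Alternatives were a pseudocount of 0.1, no filter and a filter at 5, TPM, median-ratio and quantile scaling, a constant prior variance, a replicate block, the highest row per symbol and each mouse left out. Scaling to endothelial or pericyte markers, the counts below all WT mice under each scaling, and the ratios between members were added after seeing the data. CArG boxes were searched in RefSeq promoters on GRCm38.p6, and no coordinates were moved between builds.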

Additional observations from a re-analysis of the deposited data

How the results depend on the processing

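No contractile gene passed the adjusted threshold under any alternative. A pseudocount of 0.1, either filter, median-ratio and quantile scaling, a constant prior variance and the highest row per symbol gave 4 genes at an unadjusted p under 0.05 and fold changes below 0 for each gene tested. Among all genes of these fits, the number at that threshold ran from 508 of 11263 (filter at 5) to 887 of 21557 (no filter). After conversion to TPM the count was 0, against 1272 of all 12040 genes tested there. The median log2 fold change was 0.99, and *Acta2* stood at 1.07, *Tagln* at 0.87, *Myh11* at 0.98, *Mylk* at 1.43, *Myl9* at 1.36, *Tpm1* at 1.54, *Tpm2* at 0.99, *Lmod1* at 0.41 and *Smtn* at 0.58. TPM also moved the median of all genes to 1.25, so the members lay 0.26 below it, and no member was below all WT mice. Endothelial scaling gave a count of 0, against 1060 of 16337 genes. The median was -0.13 and 0 members lay below all WT mice, with *Mylk* at 0.41, *Myl9* at 0.17 and *Tpm1* at 0.36. Pericyte scaling gave a count of 1, against 672 of 16277 genes. The median was -0.39, with *Mylk* at 0.16 and *Tpm1* at 0.11, and this scaling moved the median of all genes to 0.16. The contractile to pericyte log2 difference of -0.20 became 0.056 with the endothelial sum as denominator. Without WT replicate 1 the count was 4, against 585 of 16064 genes. Without WT replicate 2 it was 2, against 516 of 16158, and without WT replicate 3 it was 3, against 1426 of 16376. Leaving out any 1 of the 5 mice, the median was -0.79 to -0.42 and the members below all WT mice 8 to 10. The share of all tested genes below all WT mice rose from 10.3% to between 14.5% and 27.9%. *Mylk* ran from -0.39 to 0.29 and stood at 0.02 without WT replicate 2. Where Ins2-AKITA was left with 1 mouse, that mouse was assumed to vary like the WT mice. The labels number mice in both groups but state no pairs, so the numbers were not taken as pairs. Deviations of same-numbered mice correlated at 0.05 and -0.03. This cannot show whether pairs exist, because the deviations of 2 Ins2-AKITA mice from their mean mirror each other. A fit with the replicate number as a block gave a count of 2, against 1249 of 16286 genes, and a median of -0.60. Only the WT group has a replicate 3, so the contractile fold changes of this fit equal those without WT replicate 3. Depth limits the low genes: *Cnn1* rested on 15 fragments or fewer per mouse.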
